A study of Mus musculus with 9 samples.

Results

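The 41 genes described here encode the glutathione, thioredoxin and antioxidant enzymes of mouse cells, together with the regulator Keap1. They were taken by symbol from a table of 55536 Ensembl gene IDs, and all 41 symbols matched 1 ID each. All 41 passed the filter on low counts and so are among the 15720 genes tested, although Gstt1 and Sod3 passed only through counts in knockout libraries. RNA was sequenced from primary mouse myoblasts, cells that divide in culture and can fuse into muscle fibres, in 9 libraries of 3 groups of 3. Knockout oxybutynin cells were Uqcrfs1 -/- and were given oxybutynin, a muscarinic receptor antagonist, at 7.5 µM for 5 days. Knockout vehicle cells were Uqcrfs1 -/- and received an equal volume of DMSO. Floxed vehicle cells were Uqcrfs1 +/+, carried the floxed allele and received DMSO. Every group had been infected with an adenovirus, for Cre recombinase in the knockout cells and for green fluorescent protein in the floxed cells, 72 h before seeding, and treatment began 24 h after seeding. Genotype therefore went together with the virus given, and no floxed cells received oxybutynin. The labels do not say what separates replicates (animals, cultures or extractions). The p-values thus rest on library-to-library spread that may be technical.

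Uqcrfs1 encodes the Rieske iron-sulphur protein of mitochondrial complex III, a site at which the respiratory chain can pass electrons to oxygen and form superoxide. Superoxide dismutases turn superoxide into hydrogen peroxide, and catalase, glutathione peroxidases and peroxiredoxins reduce peroxides. Glutathione peroxidases draw on glutathione, peroxiredoxins mostly on thioredoxin, and both carriers are recharged with NADPH by glutathione reductase and thioredoxin reductases. Many of these genes are targets of NRF2 (Nfe2l2), a transcription factor that KEAP1 holds for degradation until electrophiles or oxidants modify KEAP1.

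Levels are counts per 1000000 (CPM) of the library total scaled by the trimmed mean of M values, with SD over n = 3 libraries a group. Log2 fold changes carry SE and come from edgeR's quasi-likelihood test fitted to all 9 libraries. A gene is called, and said to have risen or fallen, at a Benjamini-Hochberg adjusted p under 0.05 over all genes tested. Library totals ran from 19604971 to 26226949 counts. Uqcrfs1 averaged 2.56 ± 0.437 CPM in knockout oxybutynin, 2.45 ± 0.356 CPM in knockout vehicle and 79.6 ± 3.67 CPM in floxed vehicle libraries. The mitochondrial genome took 1.58% to 2.12% of counts in knockout oxybutynin, 1.95% to 2.71% in knockout vehicle and 3.07% to 3.14% in floxed vehicle libraries. Log2 fold changes also rose with the GC content of transcripts, with a Spearman correlation over 12976 protein-coding genes (genes being no independent replicates) of 0.542 for knockout vehicle against floxed vehicle and 0.690 for oxybutynin against vehicle in knockout cells. Values with the trend of each library on GC content and exon length removed are therefore given where that ends or turns a call, or changes a log2 fold change by over 1.5 times. That removal moved the median log2 fold change of all genes to -0.13 against -0.01 for knockout vehicle over floxed vehicle. Values of about -0.13 with the trend removed thus lie near the median gene. Knockout vehicle replicate 3 correlated more closely with the oxybutynin libraries (0.992 to 0.993, Pearson, log2 CPM) than with the other knockout vehicle libraries (0.990 and 0.986). Knockout vehicle replicate 2 was the lowest of its group for 28 of the 41 genes. It also correlated more closely with the floxed libraries (0.951 to 0.953) than the other knockout vehicle libraries did (0.933 to 0.941).

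Markers of the labelled cell type were present in every library. The myoblast list (Myod1, Myf5, Pax7, Des, Cdh15, Msc) summed to 3044 to 3305 CPM in knockout oxybutynin, 2363 to 3148 CPM in knockout vehicle and 2338 to 2416 CPM in floxed vehicle libraries, although Msc was at or near 0 in all groups. Its members differed in direction: Myod1, Pax7 and Des had higher means in both knockout groups than in floxed vehicle, while Cdh15 had means of 112 CPM in knockout oxybutynin, 103 CPM in knockout vehicle and 189.98 CPM in floxed vehicle, and Myf5 was lower in both knockout groups too. Among markers of differentiating muscle, Myh3 averaged 176 CPM in knockout oxybutynin, 214 CPM in knockout vehicle and 701 CPM in floxed vehicle, Myog and Tnnt3 were also lower in both knockout groups, and Acta1 and Ckm were higher. Leukocyte markers, of which 3 of 5 were tested, summed to 17.2 to 20.1 CPM in knockout oxybutynin, 15.3 to 18.0 CPM in knockout vehicle and 8.94 to 10.0 CPM in floxed vehicle libraries. That order was set by Cd68, with means of 12 CPM in knockout oxybutynin, 10.8 CPM in knockout vehicle and 4.74 CPM in floxed vehicle, and by Lyz2, while Adgre1 and Ptprc were under 1 CPM and highest in floxed vehicle. Smooth muscle markers, 2 of 3 tested, summed to 1021 to 1157 CPM in knockout oxybutynin, 817 to 1099.7 CPM in knockout vehicle and 453 to 499 CPM in floxed vehicle libraries, nearly all of it Acta2. Fibroblast markers, 3 of 5 tested, summed to under 6 CPM in every library, with Lum at 0 in all of them. The part of other cells in the results was not tested, and in bulk RNA fewer cells of a type and less RNA per cell cannot be told apart.

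The first comparison set knockout vehicle against floxed vehicle cells, which differ in Uqcrfs1 and in the virus given, and these cannot be told apart. Transcripts of the antioxidant enzymes were mostly more abundant in knockout cells. Of the 41 genes 33 rose, 2 fell and 6 were not called, where 63.3% of all tested genes were called, 29.9% higher and 33.4% lower. The median log2 fold change was 0.50 over the 41 genes and -0.01 over all tested genes. Groups did not overlap for 32 genes higher in knockout and 3 lower, where 31.2% and 35.5% of all tested genes had no overlap in those directions. With the GC and length trend removed 25 of the 41 rose and 6 fell, with a median of 0.58, where 23.1% of all genes rose and 37.8% fell. The genes together took 0.536% to 0.551% of counts in knockout vehicle and 0.329% to 0.344% in floxed vehicle libraries. Their mean levels summed to 5313 CPM in knockout vehicle and 3359 CPM in floxed vehicle, and Gpx3 and Txnrd1 made up 17.3% and 11.9% of the difference. The 15 genes that rose more than 2-fold were mostly peroxidases, transferases and reductases, and no gene of the set fell by 2-fold. The share of all tested genes beyond 2-fold was not counted, so whether 15 is many for these data is not known. The members were chosen with earlier results of these data known, so these counts are a description. Gstt1 and Sod3 entered the test through their knockout counts, which tilts them toward a rise, so their calls carry no weight. Without them 31 of 39 rose, 2 fell, 13 rose more than 2-fold and the median was 0.47. Both are also among the 32 genes higher without overlap and the 25 that rose with the trend removed.

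**Figure D1:**
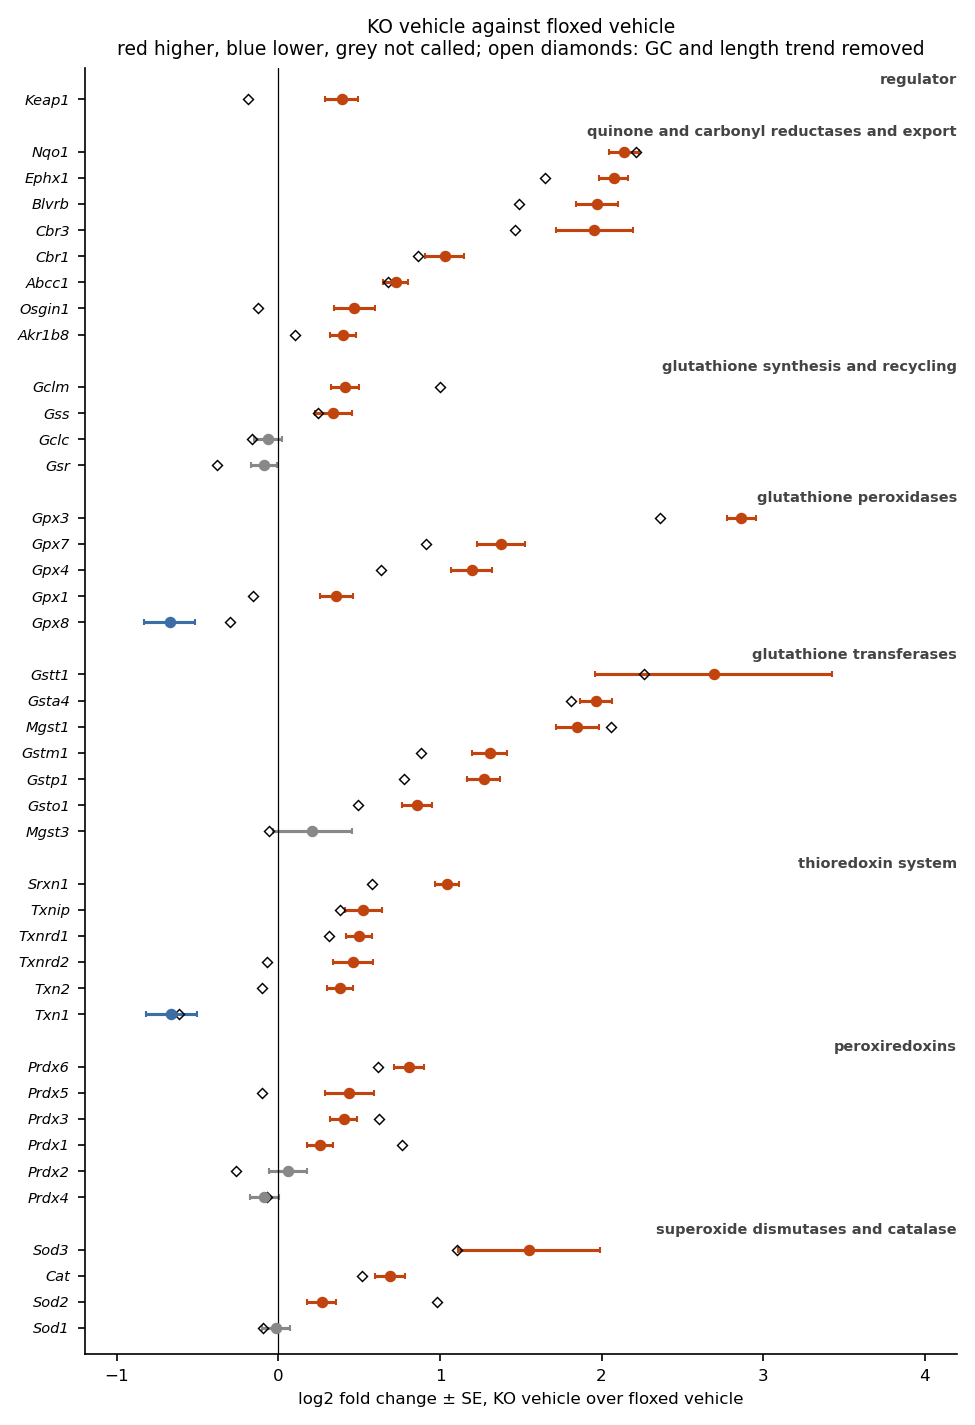
Log2 fold change (± SE) of knockout vehicle over floxed vehicle for each of the 41 genes, grouped by role, with called rises in red, called falls in blue and uncalled genes in grey. Open diamonds are the values with the GC and length trend removed. Gpx3, Nqo1 and Ephx1 lie far to the right, as does Gstt1 on few counts, and Gpx8 and Txn1 are the 2 called genes left of 0.

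Promoter sequence was read for the genes because so many rose together. RefSeq windows of 300 bases (GRCm38.p6, 250 before to 50 after a start) were found for 35 of the 41 genes, as 43 windows. They were searched on both strands for TGACNNNGC, the core of the antioxidant response element, and for TGACTCAGC or TGAGTCAGC, forms that contain the AP-1 motif, of which TGACTCAGC also matches the first pattern and TGAGTCAGC does not. The first was in 6 of the 43 windows (14%), those of Srxn1, Gclm, Prdx1, Mgst1, Txnrd1 and Sod1, against 12.4% of 32851 windows of all genes. The forms with the AP-1 motif were in 4 of the 43 windows (9.3%), against 0.822% of all windows. A match is a description of the letters and not a bound site. The genes were chosen as antioxidant genes, many of them NRF2 targets, so a share above that of all windows can come from the choice. These shares say nothing about the cause of the rises, which was not tested. The 4 stretches with these forms are shown in the direction of transcription, with the 9 matched bases in capitals, since these forms were the rarer of the patterns over all windows.
Srxn1: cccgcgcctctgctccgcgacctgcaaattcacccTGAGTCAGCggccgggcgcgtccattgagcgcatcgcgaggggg
Gstp1: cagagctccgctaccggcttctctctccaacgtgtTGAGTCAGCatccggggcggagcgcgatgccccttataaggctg
Prdx1: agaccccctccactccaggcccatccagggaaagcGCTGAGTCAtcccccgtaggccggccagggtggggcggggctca
Osgin1: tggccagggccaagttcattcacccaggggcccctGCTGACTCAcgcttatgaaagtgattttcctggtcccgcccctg
The Srxn1 stretch is chr2:152105444-152105522 on the plus strand, with its match starting at -45 from the start site. The Gstp1 stretch is chr19:4037943-4038021 on the minus strand, with its match at -74. The Prdx1 stretch is chr4:116685431-116685509 and the Osgin1 stretch chr8:119437013-119437091, both on the plus strand, and their matches, at -133 and -99, read on the opposite strand. All 4 of these genes rose with knockout, where 33 of all 41 members did (80.5%), although Osgin1 turned to -0.13 without a call when the GC and length trend was removed. Srxn1 and Gstp1 were at 1.04 and 1.27 on the log2 scale, and Prdx1 and Osgin1 at 0.26 and 0.47.

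Keap1, the repressor of NRF2, had 48.4, 41.3 and 39.4 CPM in knockout oxybutynin, 40.4, 34.9 and 42.5 CPM in knockout vehicle and 31.5, 28.7 and 29.7 CPM in floxed vehicle libraries. Every knockout library was above every floxed one, by small margins. The log2 fold change of knockout vehicle over floxed vehicle was 0.39 ± 0.10 (adjusted p = 0.00316), and it became -0.19, called lower, with the GC and length trend removed. An antisense gene, Gm16754, overlaps Keap1 and held 1 to 20 counts a library.

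The enzymes that make and recycle glutathione had the lowest median log2 fold change of any role, 0.14, with 2 of 4 genes called higher. Glutamate-cysteine ligase, the rate-limiting enzyme, has a catalytic subunit, Gclc, and a modifier subunit, Gclm, and only the modifier rose. Gclm had 83.5, 84 and 96.1 CPM in knockout oxybutynin, 95.2, 109 and 90.9 CPM in knockout vehicle and 74, 74.1 and 73.5 CPM in floxed vehicle libraries. All knockout libraries exceeded the floxed ones, with a log2 fold change of 0.41 ± 0.09 in vehicle (adjusted p = 5.45e-04), or 1.00 with the GC and length trend removed. Gclc had 78.9, 82.8 and 77.3 CPM in knockout oxybutynin, 93.1, 99.4 and 78.2 CPM in knockout vehicle and 95.3, 91.3 and 96.6 CPM in floxed vehicle. Knockout vehicle and floxed vehicle overlapped, with a log2 fold change of -0.07 ± 0.09 that was not called, or -0.16, called lower, with the trend removed. Gsr, the glutathione reductase, was at 67.4, 74.1 and 79.1 CPM in knockout oxybutynin, 70.6, 71.9 and 66.7 CPM in knockout vehicle and 76.2, 72.5 and 74 CPM in floxed vehicle. Its knockout vehicle values lay just below the floxed ones without a call (-0.09 ± 0.08), and with the trend removed it was called lower at -0.38. Gss, the glutathione synthetase, had 28.7, 26 and 25.1 CPM in knockout oxybutynin, 28.1, 20.1 and 25.1 CPM in knockout vehicle and 19.9, 19.1 and 18.9 CPM in floxed vehicle, and rose by 0.34 ± 0.12 (adjusted p = 0.0162). That call was lost with the trend removed (0.25) and without knockout vehicle replicate 1 (0.27), floxed vehicle replicate 2 (0.33) or floxed vehicle replicate 3 (0.33). Gss overlaps Acss2 on the other strand, which was at 1.65 on the log2 scale. Whether counting used the strand is not stated, so the Gss value is uncertain.

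Of the 5 glutathione peroxidases 4 rose and 1 fell, or 3 and 1 with the GC and length trend removed, and Gpx3 had the largest fitted rise of the 41 genes. Gpx3, the secreted plasma peroxidase and a selenoprotein, lies on chromosome 11 from 54902453 to 54910377 (GRCm38). It had 419.97, 398 and 449.6 CPM in knockout oxybutynin, 367, 367 and 438 CPM in knockout vehicle and 54, 54.4 and 52.3 CPM in floxed vehicle libraries. The lowest knockout library was several times the highest floxed one, and in vehicle the rise reached 7.29-fold (log2 fold change 2.87 ± 0.09, adjusted p = 4.49e-13). Per kilobase of annotated exon, Gpx3 averaged 216 CPM in knockout vehicle and 29.6 CPM in floxed vehicle, and Gpx1, the cytosolic and mitochondrial peroxidase, averaged 159 CPM in knockout vehicle and 124 CPM in floxed vehicle. Gpx3 was thus above Gpx1 per length in all 6 knockout libraries and below it in all floxed libraries. Gpx1 itself was at 229 ± 32.6 CPM in knockout vehicle and 178 ± 4.29 CPM in floxed vehicle (log2 fold change 0.36 ± 0.10), and turned to a call of lower, -0.16, with the GC and length trend removed.

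Gpx4, the selenoprotein that reduces lipid hydroperoxides in membranes and so limits ferroptosis, had 218, 189 and 174 CPM in knockout oxybutynin, 154, 129 and 201 CPM in knockout vehicle and 71.4, 71.8 and 68.6 CPM in floxed vehicle libraries. Knockout vehicle replicate 2 was lowest of its group and still above every floxed library. The log2 fold change was 1.20 ± 0.13 (adjusted p = 2.70e-07), or 0.63 with the trend removed. The annotated pseudogene Gpx4-ps2 held 24 to 126 counts a library, and reads of the 2 loci could be split. Gpx7 and Gpx8, peroxidases of the endoplasmic reticulum, went opposite ways. Gpx7 was at 9.06, 8.46 and 9.3 CPM in knockout oxybutynin, 7.5, 8.49 and 8.46 CPM in knockout vehicle and 2.55, 3.52 and 3.29 CPM in floxed vehicle and rose by 1.38 ± 0.15, or 0.91 with the trend removed. Gpx8 was at 5.31, 4.76 and 4.36 CPM in knockout oxybutynin, 7.27, 4.77 and 4.86 CPM in knockout vehicle and 9.14, 8.76 and 8.94 CPM in floxed vehicle and fell, with a log2 fold change of -0.67 ± 0.16, a call lost with the trend removed (-0.30).

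**Figure D2:**
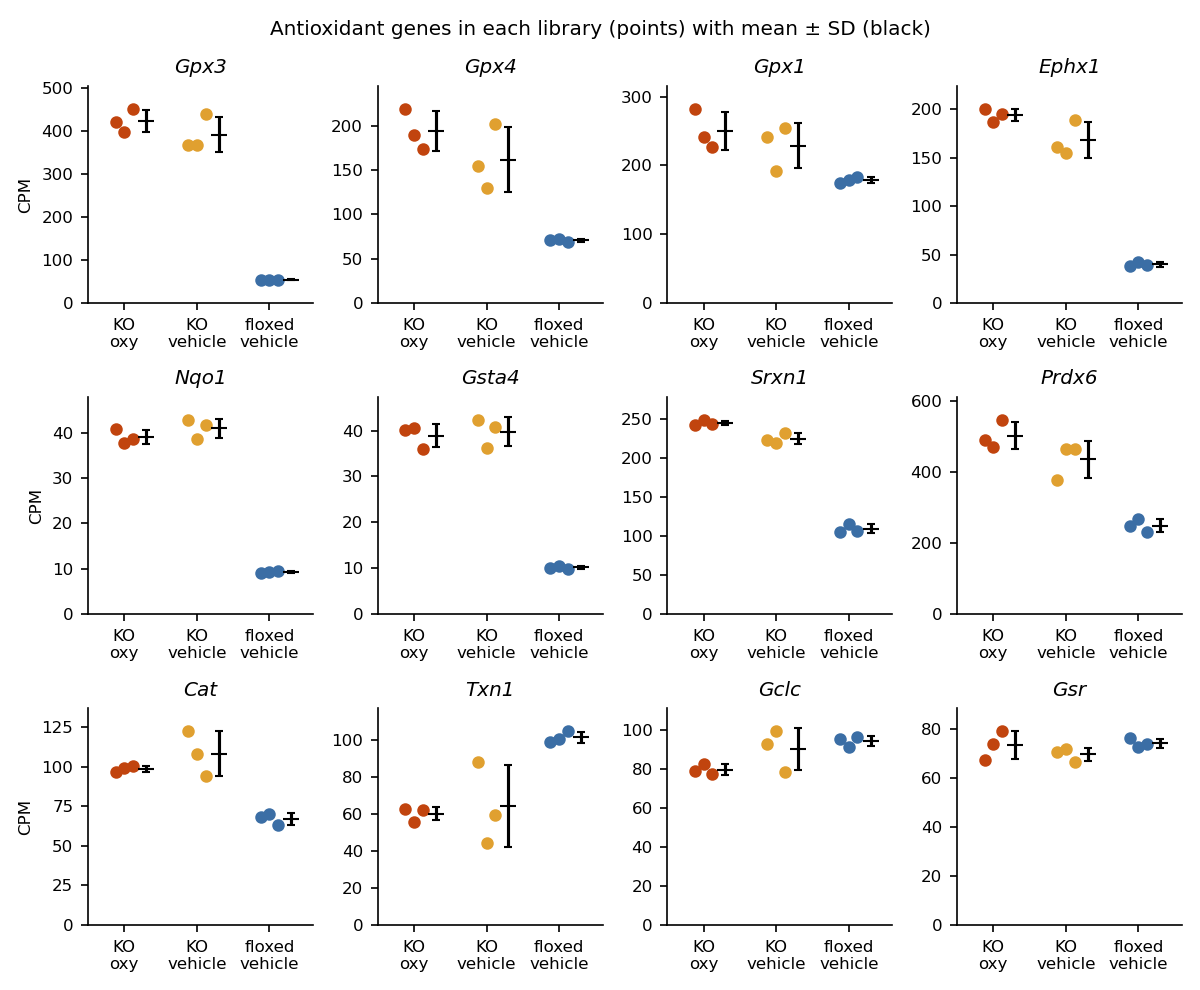
CPM (linear axes from 0) of 12 of the genes in each of the 9 libraries as points, with the group mean ± SD beside them in black. Gpx3, Ephx1, Nqo1 and Gsta4 separate both knockout groups from floxed vehicle by several times, while Gclc and Gsr stay at similar levels and Txn1 is lower in both knockout groups.

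Glutathione transferases, which join glutathione to electrophiles, rose in 6 of 7 cases, or 5 of 6 without Gstt1, also with the GC and length trend removed. Gsta4, the alpha-class enzyme that acts on lipid peroxidation products such as hydroxynonenal, had 40.2, 40.5 and 36.1 CPM in knockout oxybutynin, 42.2, 36.2 and 40.8 CPM in knockout vehicle and 10.1, 10.5 and 9.91 CPM in floxed vehicle libraries. The groups stood far apart, at 3.91-fold higher in knockout vehicle (adjusted p = 5.77e-11). Mgst1, a membrane-bound transferase and peroxidase, was at 12.4, 12.4 and 14.9 CPM in knockout oxybutynin, 12.6, 13.4 and 13.3 CPM in knockout vehicle and 3.22, 3.74 and 3.91 CPM in floxed vehicle and was 3.61-fold higher in knockout vehicle. Gstm1, of the mu class, was at 231, 214 and 234 CPM in knockout oxybutynin, 194, 158 and 226 CPM in knockout vehicle and 76.7, 73.2 and 83.8 CPM in floxed vehicle, with its lowest knockout value in knockout vehicle replicate 2 and no overlap with floxed libraries. Its log2 fold change was 1.31 ± 0.11. Gstp1, the pi-class enzyme, was the most abundant transferase per length (161 CPM per kilobase in knockout vehicle and 66.9 in floxed vehicle). It had 306, 257 and 261 CPM in knockout oxybutynin, 233, 221 and 295 CPM in knockout vehicle and 103, 106 and 101 CPM in floxed vehicle and rose by 1.27 ± 0.10, or 0.78 with the trend removed. Gstp2, a close copy of Gstp1, held 28 to 154 counts a library, and how reads shared between the copies were counted is not given. Gsto1, of the omega class, averaged 109.6 ± 13.3 CPM in knockout vehicle and 60.6 ± 3.59 CPM in floxed vehicle and rose by 0.86 ± 0.09, or 0.49 with the trend removed. Gstt1 was near the limit of detection, with counts of 16, 11 and 14 in knockout oxybutynin, 9, 10 and 11 in knockout vehicle and 4, 0 and 0 in floxed vehicle libraries. Its fitted log2 fold change, 2.69 ± 0.73, rests on those few counts, and the filter passed it only through the knockout libraries. Mgst3 averaged 3.13 ± 1.15 CPM in knockout vehicle and 2.7 ± 0.306 CPM in floxed vehicle and was not called (0.21 ± 0.24), but it was called higher without knockout vehicle replicate 2 (0.49).

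In the thioredoxin system the cytosolic carrier and its partners moved in opposite directions. Of 6 genes 5 rose and 1 fell, or 3 and 1 with the GC and length trend removed. Txn1, cytosolic thioredoxin, lies on chromosome 4 from 57943373 to 57956411 and had 62.5, 55.9 and 62.1 CPM in knockout oxybutynin, 88, 44.5 and 59.5 CPM in knockout vehicle and 98.8, 101 and 105 CPM in floxed vehicle libraries. All knockout libraries were below the floxed ones, though the knockout vehicle libraries spread widely among themselves. Txn1 fell, with a log2 fold change of -0.66 ± 0.16 (adjusted p = 0.00142), or -0.62 with the GC and length trend removed. Txnrd1, the cytosolic selenoprotein that reduces it, had 745, 818 and 779 CPM in knockout oxybutynin, 811, 853 and 734 CPM in knockout vehicle and 567, 577 and 554 CPM in floxed vehicle. It rose by 0.50 ± 0.08 without overlap, or 0.32 with the trend removed, and was the gene with the highest CPM of the set.

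Srxn1, sulfiredoxin, which restores hyperoxidised peroxiredoxins, had 243, 248 and 243 CPM in knockout oxybutynin, 223, 219 and 232 CPM in knockout vehicle and 106, 116 and 106 CPM in floxed vehicle libraries. Knockout libraries were about level with each other and clearly above floxed ones, with a rise of 2.06-fold in vehicle (adjusted p = 2.27e-09; log2 fold change 1.04, or 0.58 with the trend removed). Txnip, which binds and inhibits thioredoxin, had 36.9, 32.2 and 40.6 CPM in knockout oxybutynin, 29.5, 29.3 and 35.6 CPM in knockout vehicle and 20.1, 21.4 and 24 CPM in floxed vehicle and rose by 0.53 ± 0.11. The mitochondrial thioredoxin Txn2 had 135, 124 and 129 CPM in knockout oxybutynin, 113, 108 and 127 CPM in knockout vehicle and 89.9, 88 and 89.9 CPM in floxed vehicle and rose by 0.38 ± 0.08, where cytosolic Txn1 fell. Its reductase Txnrd2 averaged 12.8 ± 0.797 CPM in knockout vehicle and 9.31 ± 0.372 CPM in floxed vehicle and rose by 0.46 ± 0.12. Both mitochondrial rises were lost with the trend removed (-0.10 for Txn2 and -0.07 for Txnrd2).

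Of the 6 peroxiredoxins 4 rose and 0 fell; with the GC and length trend removed 3 rose and 1, Prdx2, was lower. Prdx6, the 1-cysteine peroxiredoxin that also acts on phospholipid hydroperoxides, had 489, 471 and 545 CPM in knockout oxybutynin, 376, 465 and 463 CPM in knockout vehicle and 248, 267 and 229.5 CPM in floxed vehicle libraries. It rose by 0.81 ± 0.10 without overlap (adjusted p = 1.09e-06). Prdx3, the mitochondrial peroxiredoxin, had 56.9, 51.9 and 52.3 CPM in knockout oxybutynin, 62.5, 56.7 and 55.7 CPM in knockout vehicle and 44.2, 43.9 and 43.9 CPM in floxed vehicle and rose by 0.40 ± 0.08, or 0.63 with the trend removed. Prdx1, the abundant cytosolic form, had 469, 437 and 507 CPM in knockout oxybutynin, 463, 492 and 459 CPM in knockout vehicle and 385, 408 and 391 CPM in floxed vehicle. Its groups did not overlap but differed little, at 0.26 ± 0.08, and at 0.76 with the trend removed. Prdx5, found in mitochondria, peroxisomes and cytosol, had 40.7, 41 and 35.4 CPM in knockout oxybutynin, 38.7, 21.8 and 33.5 CPM in knockout vehicle and 23, 21.3 and 24.9 CPM in floxed vehicle. Knockout vehicle replicate 2 lay among the floxed values, and the call at 0.44 ± 0.15 was lost with the trend removed (-0.10) and without knockout vehicle replicate 1 (0.30), knockout vehicle replicate 3 (0.39) or floxed vehicle replicate 2 (0.38). Prdx5 overlaps Trmt112 on the other strand. Prdx2, cytosolic, and Prdx4, of the endoplasmic reticulum, were not called. Prdx2 averaged 182 ± 36.6 CPM in knockout vehicle and 174 ± 0.633 CPM in floxed vehicle (0.06 ± 0.12), and Prdx4 38.6 ± 3.7 CPM in knockout vehicle and 41 ± 1.37 CPM in floxed vehicle (-0.09 ± 0.09). Prdx2 overlaps Junb and Rnaseh2a on the other strand, was called lower with the trend removed (-0.26), and was called higher without knockout vehicle replicate 2 (0.23).

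Of the superoxide dismutases and catalase 3 of 4 rose, or 2 of 3 without Sod3, also with the GC and length trend removed. Cat, the peroxisomal catalase, had 96.7, 99.3 and 100.5 CPM in knockout oxybutynin, 123, 108 and 94.2 CPM in knockout vehicle and 68, 70.3 and 63 CPM in floxed vehicle libraries. It rose by 0.69 ± 0.09 without overlap (adjusted p = 4.81e-06). Sod2, the manganese dismutase of the mitochondrial matrix, had 73.5, 70.2 and 68.5 CPM in knockout oxybutynin, 86.9, 68.2 and 74.8 CPM in knockout vehicle and 64.1, 62.7 and 63.9 CPM in floxed vehicle. The groups were close, with a log2 fold change of 0.27 ± 0.09 that became 0.98 with the trend removed. It lost its call without knockout vehicle replicate 1 (0.21) or floxed vehicle replicate 2 (0.26). Sod1, the copper-zinc dismutase of cytosol and intermembrane space, had 118, 111 and 118 CPM in knockout oxybutynin, 108, 90.8 and 111 CPM in knockout vehicle and 104, 106 and 103 CPM in floxed vehicle and was not called (-0.01 ± 0.08). Sod3, the extracellular dismutase, was scarce, with counts of 10, 11 and 11 in knockout oxybutynin, 9, 14 and 22 in knockout vehicle and 4, 4 and 6 in floxed vehicle libraries. Knockout vehicle lay above floxed vehicle, at 1.55 ± 0.44, a gene that the filter passed in the same way.

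The quinone and carbonyl reductases, with epoxide hydrolase and an export pump, were the only role of more than 1 gene in which every gene rose, 8 of 8, although Akr1b8 and Osgin1 lost the call with the trend removed. Nqo1, the quinone reductase often used as a readout of NRF2, lies on chromosome 8 from 107388225 to 107403206 and had 40.8, 37.8 and 38.7 CPM in knockout oxybutynin, 42.8, 38.7 and 41.6 CPM in knockout vehicle and 9.14, 9.32 and 9.47 CPM in floxed vehicle libraries. Knockout values clustered tightly at several times the floxed ones, with a rise of 4.4-fold in vehicle (adjusted p = 1.36e-11). Ephx1, microsomal epoxide hydrolase, had 200.03, 187 and 195 CPM in knockout oxybutynin, 161, 155 and 189 CPM in knockout vehicle and 37.7, 42.4 and 39.7 CPM in floxed vehicle and rose 4.21-fold. Blvrb, biliverdin reductase B, which also reduces flavins, had 22, 19.6 and 19.9 CPM in knockout oxybutynin, 20.4, 16 and 20.6 CPM in knockout vehicle and 5.11, 4.59 and 4.85 CPM in floxed vehicle and rose 3.92-fold. Abcc1, the pump that exports glutathione conjugates, was already abundant and had 452, 464 and 448 CPM in knockout oxybutynin, 396, 437 and 435 CPM in knockout vehicle and 256, 271 and 240.1 CPM in floxed vehicle. Its rise was smaller, at 1.65-fold, and the groups did not overlap. The carbonyl reductases Cbr1 and Cbr3 rose by 1.03 ± 0.12 and 1.96 ± 0.24, with Cbr3 at 5.86 ± 1.82 CPM in knockout vehicle and 1.52 ± 0.348 CPM in floxed vehicle. Akr1b8, an aldo-keto reductase, averaged 105 ± 5.67 CPM in knockout vehicle and 79.5 ± 2.69 CPM in floxed vehicle and rose by 0.40 ± 0.08, or 0.10 without a call when the trend was removed. Osgin1, an oxidative stress-induced growth inhibitor, averaged 46.1 ± 10.1 CPM in knockout vehicle and 33.2 ± 1.06 CPM in floxed vehicle and rose by 0.47 ± 0.12, which became -0.13 without a call when the trend was removed.

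**Figure D3:**
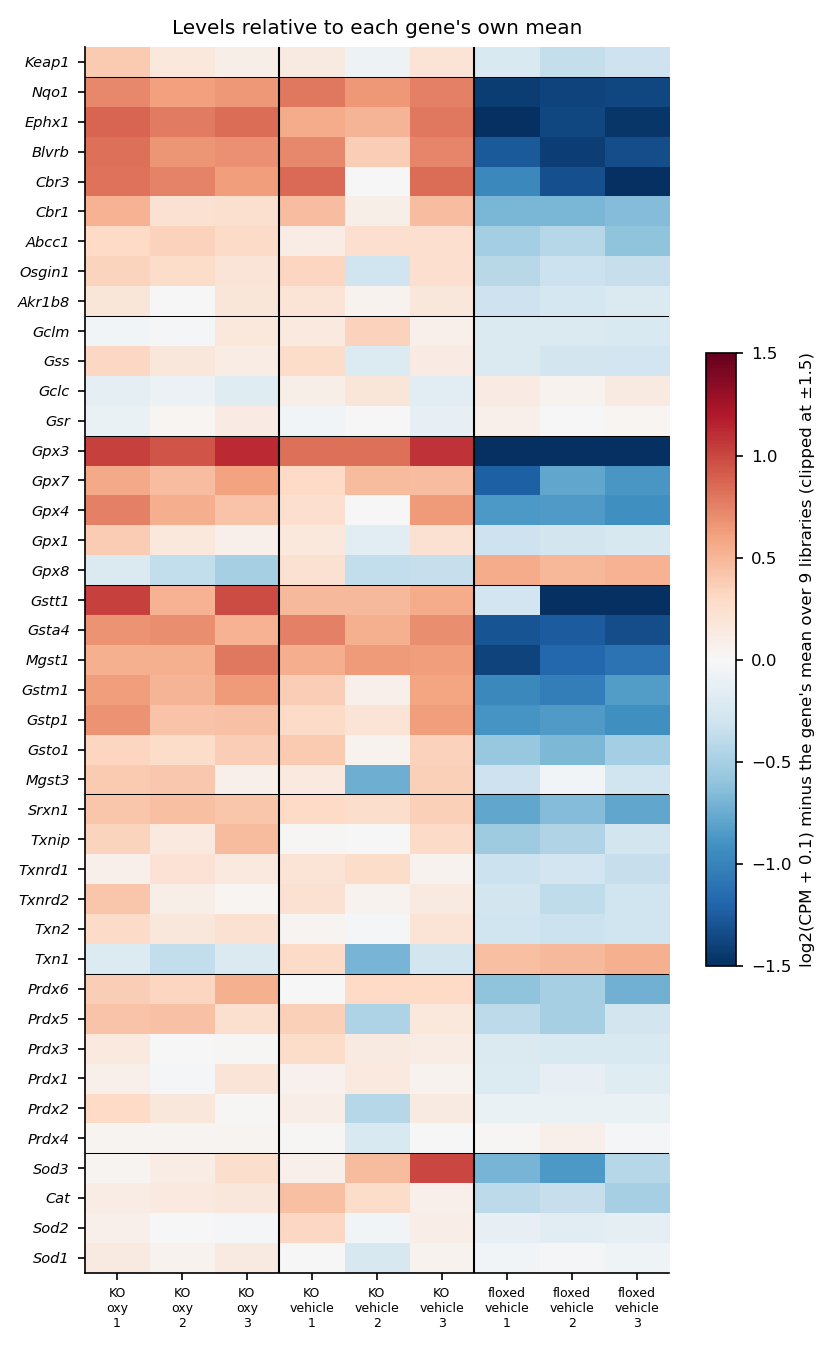
Log2(CPM + 0.1) of each gene minus its own mean over the 9 libraries, with the genes in rows by role and the libraries in columns, knockout oxybutynin first, then knockout vehicle, then floxed vehicle. Most rows are above their mean in both knockout groups, Gpx8 and Txn1 are below it in most knockout libraries, and knockout vehicle replicate 2 is the palest of its group for many genes, being the lowest for 28 of 41.

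The second comparison asked whether oxybutynin moved these genes in knockout cells. No member was called. Of the 41 genes 0 rose and 0 fell in edgeR's test, where 0.0127% of all tested genes were called, 0.00636% in each direction. With the GC and length trend removed edgeR called 0 of them as well, where 0.0255% of all genes were higher and 0.0318% lower. DESeq2 called 0 of the 35 members to which it gave an adjusted p, where it called 12.2% of 9320 genes with one. It gave none for Cbr3, Gpx7, Gpx8, Gstt1, Mgst3 and Sod3. Limma-voom called 0 of the 41, where it called 0.0191% of all tested genes. At an unadjusted p under 0.05 there were 5, all higher, Ephx1, Gpx4, Gstm1, Prdx5 and Prdx6, where 26% of all tested genes had such a p. Oxybutynin and vehicle groups did not overlap for 5 genes (12.2%), all higher, Abcc1, Srxn1, Prdx4, Prdx6 and Sod1, where 10.5% of all tested genes were higher and 11.6% lower without overlap. The median log2 fold change was 0.11 over the 41 genes, or -0.01 with the GC and length trend removed, and 27 estimates were positive and 14 negative. With the trend removed 15 of the 41 estimates turned sign.

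The intervals give the size of change these libraries could have missed. For 37 of the 41 genes the 95% confidence interval of the log2 fold change of oxybutynin over vehicle lay within 1.5-fold either way. The exceptions were Gstt1 (-0.58 to 1.39), Mgst3 (-0.17 to 0.80), Prdx5 (0.01 to 0.63) and Sod3 (-1.31 to 0.27), of which Prdx5 alone was above 5 CPM in its group means. Nqo1 was at -0.07 ± 0.09 (interval -0.25 to 0.11), Gpx3 at 0.11 ± 0.08 (-0.07 to 0.29) and Txnrd1 at -0.03 ± 0.08 (-0.20 to 0.13). With the trend removed these were -0.02, -0.09 and 0.01. Txn1, which was lower in knockout vehicle, was at -0.09 ± 0.16 (-0.42 to 0.25). The estimates farthest from 0 among genes above 10 CPM were those of Prdx5 (0.32 ± 0.15), Gpx4 (0.26 ± 0.12) and Gstm1 (0.23 ± 0.10), higher with oxybutynin and not called. With the trend removed they were 0.14, 0.03 and 0.08, and Txnip (0.24) and Prdx6 (0.23) lay farther from 0. Without knockout vehicle replicate 3, the library closest to the oxybutynin group, 7 genes rose and 2 fell, which is 22.0% of the 41, where 26% of all tested genes were called. Those higher were Ephx1 (0.30), Gpx3 (0.20), Gpx4 (0.45), Gstm1 (0.36), Gstp1 (0.27), Txn2 (0.23) and Txnip (0.31), and those lower were Gclc (-0.27) and Cat (-0.22).

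**Figure D4:**
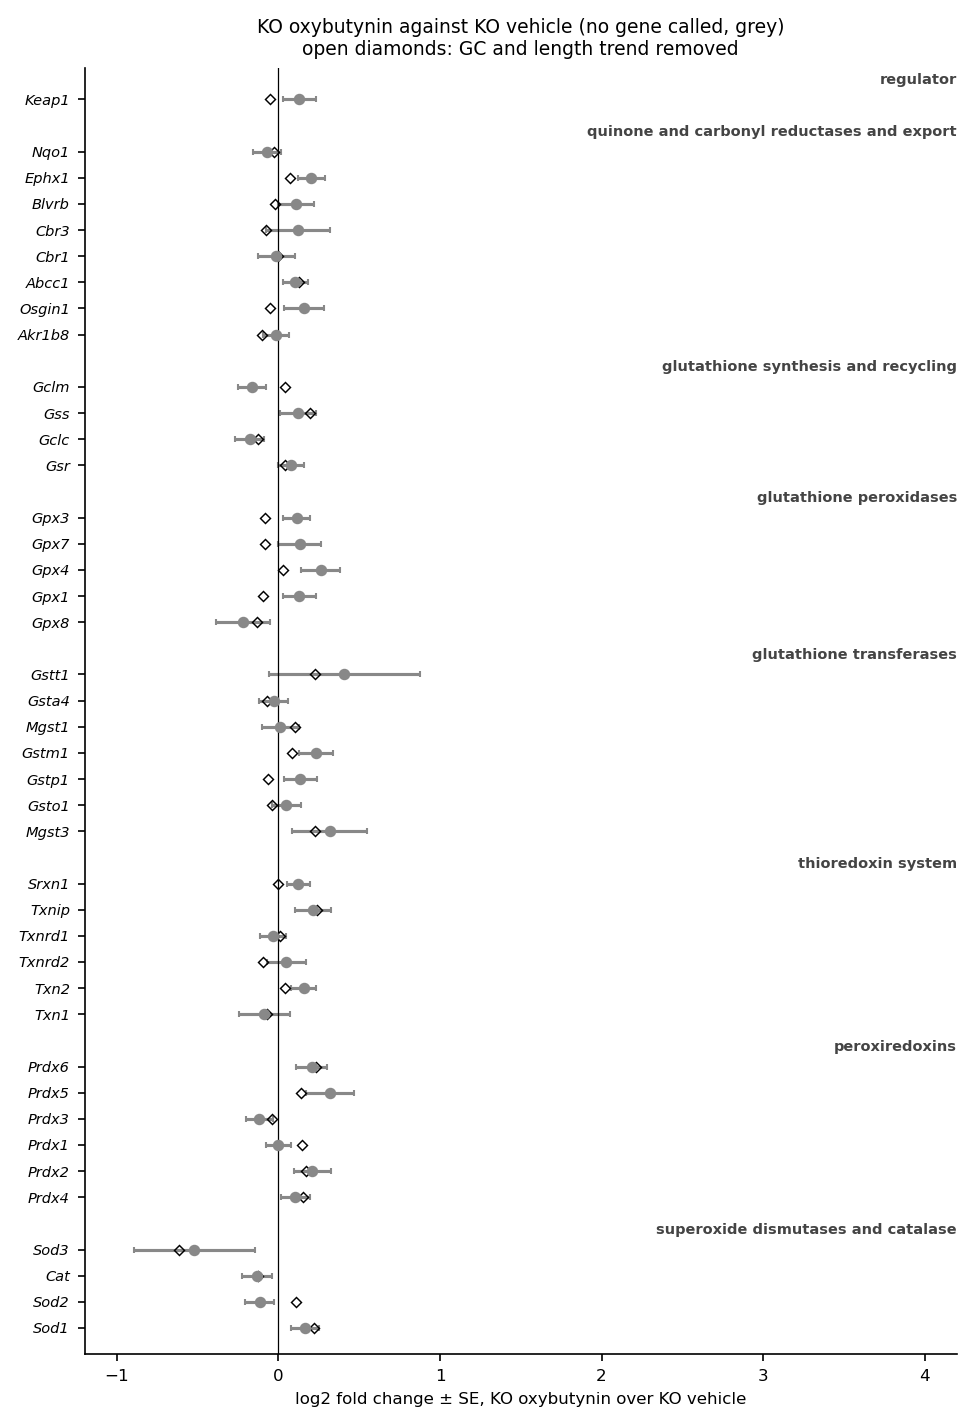
Log2 fold change (± SE) of knockout oxybutynin over knockout vehicle for the 41 genes, on the same axis as the plot of knockout vehicle over floxed vehicle. No gene was called, all points but that of Sod3 lie between -0.22 and 0.41, and the open diamonds show the values with the GC and length trend removed.

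The third comparison set oxybutynin-treated knockout cells against floxed vehicle cells, and so shares its libraries with both others. Of the 41 genes 32 rose and 3 fell, or 31 and 3 of 39 without Gstt1 and Sod3, where 35.1% of all tested genes rose and 36.9% fell, and with the GC and length trend removed 25 rose and 6 fell, where 24.3% and 38.8% did. The median log2 fold change was 0.63 over the 41 genes. Groups did not overlap for 36 genes higher in knockout oxybutynin and 3 lower, where 38.9% and 40.1% of all tested genes had no overlap in those directions. Gstt1 and Sod3 are among these 36, and Gstt1 is among the 25 that rose with the trend removed. Those that fell were Gpx8 (-0.89 ± 0.16, or -0.44 with the trend removed), Txn1 (-0.75 ± 0.16) and Gclc. Gpx3 averaged 422 ± 26.1 CPM in knockout oxybutynin and 53.6 ± 1.15 CPM in floxed vehicle libraries (2.98 ± 0.09). Nqo1 averaged 39.1 ± 1.53 CPM in knockout oxybutynin and 9.31 ± 0.163 CPM in floxed vehicle (2.07 ± 0.10), and Prdx6 502 ± 38.7 CPM in knockout oxybutynin and 248 ± 18.6 CPM in floxed vehicle (1.01 ± 0.10). Gclc fell, with a log2 fold change of -0.24 ± 0.09, with 79.7 ± 2.84 CPM in knockout oxybutynin and 94.4 ± 2.75 CPM in floxed vehicle. That call was lost without knockout oxybutynin replicate 1 or 3 or floxed vehicle replicate 1 or 3 (-0.24 to -0.21). It was also lost with no filter on low counts (-0.19). Gclm was called higher (0.25 ± 0.09), but not without knockout oxybutynin replicate 3 (0.19) or floxed vehicle replicate 3 (0.25). Nor was Gclm called with library totals alone (0.22), and it was at 1.04 with the trend removed. Prdx2 was called higher (0.27 ± 0.12, adjusted p = 0.0463) but not without any 1 of the floxed vehicle libraries or without knockout oxybutynin replicate 1 or 2 (0.20 to 0.28), nor in limma-voom (adjusted p = 0.0512) or with library totals alone (adjusted p = 0.0543), and it turned to -0.09 with the trend removed. Sod2 and Sod3 were not called (0.15 ± 0.09 and 1.03 ± 0.46), with 70.7 ± 2.56 CPM of Sod2 in knockout oxybutynin and 63.6 ± 0.797 CPM in floxed vehicle. With the trend removed Sod2 was called higher, at 1.09.

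Other genes of the same pathways were taken from lists made with earlier results known. Transcripts of NRF2 itself differed little. Nfe2l2 averaged 217 ± 8.61 CPM in knockout oxybutynin, 236 ± 15.8 CPM in knockout vehicle and 213 ± 3.46 CPM in floxed vehicle libraries, with a log2 fold change of 0.15 ± 0.08 in vehicle that was not called (adjusted p = 0.0945) but was called higher at nearly the same size, 0.15 (adjusted p = 0.0279), with the GC and length trend removed. Of 9 genes of NRF2 and its partners 5 rose (55.6%) and 3 fell (33.3%) with knockout, where 29.9% of all tested genes rose and 33.4% fell. Bach1, a repressor that competes for NRF2 elements, fell to 53.8 ± 6.06 CPM in knockout vehicle, against 87 ± 1.79 CPM in floxed vehicle (-0.69 ± 0.09). Cul3, the ubiquitin ligase scaffold that works with KEAP1, fell, with a log2 fold change of -1.23 ± 0.13, or -0.34 with the trend removed. Sqstm1, an autophagy receptor that can bind KEAP1, rose by 1.51 ± 0.10 (1.00 with the trend removed), and Nfe2l1, a relative of NRF2, by 1.06 ± 0.07 (0.58).

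Of 19 other NRF2 targets and genes of NADPH supply, 13 rose (68.4%) and 3 fell (15.8%). Hmox1, haem oxygenase, averaged 361 ± 29.6 CPM in knockout vehicle and 83.3 ± 5.01 CPM in floxed vehicle. The light chain of the cystine transporter, Slc7a11, rose by 1.08 ± 0.13, or 2.03 with the trend removed, and its heavy chain, Slc3a2, by 1.33 ± 0.09, or 0.85. Tkt, transketolase of the pentose phosphate pathway, rose by 1.23 ± 0.11, or 0.82, and the haem transporter Slc48a1 by 1.37 ± 0.09, or 0.83. Among those that fell, named after their values were seen, were 2 genes of NADPH supply. G6pdx, which opens the pentose phosphate pathway, was at -0.74 ± 0.08, or -1.19 with the trend removed, and Nnt, the mitochondrial transhydrogenase, at -1.41 ± 0.43, or -1.57. Nnt was scarce, with counts of 5, 31 and 12 in knockout vehicle and 37, 56 and 26 in floxed vehicle libraries. Its groups overlapped. In the same list Pgd, Taldo1, Idh2 and Nadk rose by 0.37, 0.48, 0.57 and 0.28. With the trend removed these were 0.27, 0.03 and 0.04 (both uncalled) and -0.16 (called lower). Me1, Idh1 and Nadk2 were not called, though Me1 was called higher with the trend removed (0.36).

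Of 29 other glutathione enzymes and carriers 23 were tested, 17 rose (73.9%) and 2 fell (8.7%). Cth, which makes cysteine from cystathionine, averaged 69.9 ± 4.93 CPM in knockout vehicle and 11 ± 1.41 CPM in floxed vehicle, and Chac1, which breaks glutathione down, 97.7 ± 10.5 CPM in knockout vehicle and 23.7 ± 1.11 CPM in floxed vehicle. The mu-class transferases Gstm2 and Gstm4, close relatives of Gstm1 whose reads could be split with it, rose by 1.86 ± 0.14 and 1.86 ± 0.15. Of 17 other thiol redox enzymes 7 rose (41.2%) and 4 fell (23.5%). Sesn2, a stress-inducible sestrin, rose by 0.83 ± 0.09 (0.23 with the trend removed) while its relative Sesn3 fell, with a log2 fold change of -1.21 ± 0.09 (-0.69). Txndc12 and Txndc5, thioredoxin-like proteins of the endoplasmic reticulum, rose by 0.60 ± 0.09 and 0.52 ± 0.09, the second becoming 0.07 with the trend removed. Of 13 genes of selenoprotein synthesis and other selenoproteins 7 rose (53.8%) and 1, Selenot, fell (-1.09 ± 0.09, or -0.28). Selenop, the selenium carrier, rose by 1.58 ± 0.15, Selenom by 1.18 ± 0.17 (0.65) and Selenow by 0.83 ± 0.11 (0.36). Medians of the 5 lists ran from 0.12 for thiol redox enzymes to 1.18 for the other glutathione enzymes, where all tested genes had -0.01. With the GC and length trend removed, where 23.1% of all genes rose and 37.8% fell, the counts higher and lower were 4 and 3 for NRF2 and its partners, 10 and 3 for other targets and NADPH supply, 17 and 0 for other glutathione enzymes, 5 and 2 for thiol redox enzymes and 6 and 2 for selenoprotein genes. With oxybutynin 0 genes of the 5 lists were called in edgeR's test, and their medians ran from -0.08 to 0.13.

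**Figure D5:**
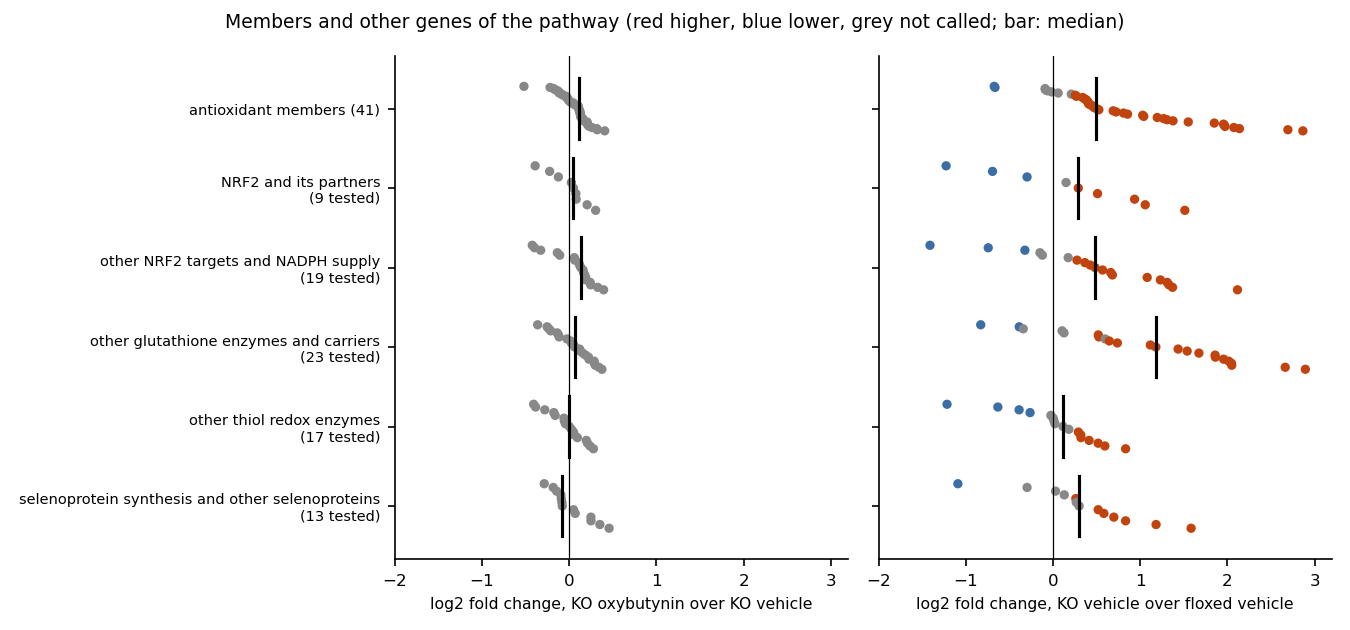
Log2 fold changes of the 41 genes and of the tested genes of the 5 further lists, 1 point per gene and a bar at each median, for knockout oxybutynin over knockout vehicle (left) and knockout vehicle over floxed vehicle (right). On the right most points are called and the median of the other glutathione enzymes is highest, at 1.18, and on the left no point is called and medians lie near 0.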

How the data were processed

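RNA sequencing of 9 libraries was analysed from 1 table of whole-number counts per gene, deposited by the authors and not normalized. Per the labels' protocols, Trizol RNA went into directional NEBNext libraries. The submitters' processing notes name STAR 2.7.0e, Trim Galore 0.6.0 with FastQC and cutadapt, and DESeq2 1.26.0, and the builds GRCm38 and mm10. The sources used here give neither the counting step, nor its use of strand, nor its annotation. All 55536 IDs were in GENCODE M21 (GRCm38), which gave coordinates, exon lengths, GC content and symbols.

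Counts were tested with edgeR 4.0.16 (R 4.3.3): filterByExpr on the groups, TMM, glmQLFit and glmQLFTest on all 9 libraries, 1 mean per group, 6 residual degrees of freedom, and Benjamini-Hochberg adjustment over 15720 genes. SEs are the log2 fold change over the square root of F. Alternatives were DESeq2 1.42.0, limma-voom 3.58.1, RLE scaling, library totals, no filter, only the groups compared, each library left out, and removal of a per-library trend on GC content and exon length (splines of 4 degrees of freedom, 15714 genes). That trend was fitted blind to the groups, and any true difference that follows GC content goes with it. Members, lists and tests were chosen with earlier results of these data known. All members are named. Values in every library are given for up to 4 per role with the lowest adjusted p, and also for Txn1 and Gstt1, added after their values were seen. Per list up to 4 called genes are named, plus Nfe2l2, Bach1, Hmox1 and Slc7a11. G6pdx, Nnt, Pgd, Taldo1, Idh2, Nadk, Me1, Idh1 and Nadk2 were also named, after their values were seen. Numbers of replicates come from accession order and pair nothing.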

Additional observations from a re-analysis of the deposited data

How the results depend on the processing

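Counts of members called kept within 1.5 times of those reported under DESeq2, limma-voom, RLE scaling, library totals, no filter and a fit of only the groups compared. With the GC and length trend removed, 6 members instead of 2 were lower in knockout vehicle and 6 instead of 3 in knockout oxybutynin, both against floxed vehicle. It also turned the sign of 7 genes in each that were called with or without the trend, and of Mgst3 (-0.060), uncalled, in knockout vehicle. For knockout vehicle over floxed vehicle these were Keap1 (-0.19), Osgin1 (-0.13), Gpx1 (-0.16), Txn2 (-0.10), Txnrd2 (-0.069), Prdx2 (-0.26) and Prdx5 (-0.10). For knockout oxybutynin over floxed vehicle they were Keap1 (-0.25), Akr1b8 (-0.0025), Osgin1 (-0.18), Gpx1 (-0.25), Txn2 (-0.062), Txnrd2 (-0.17) and Prdx2 (-0.089). The same fit put the median of all genes at -0.13 and -0.14 in these comparisons. Measured from that median, the first 7 were, in the order given, at -0.06, 0.0005, -0.03, 0.03, 0.06, -0.13 and 0.03. The second 7 were at -0.11, 0.13, -0.05, -0.11, 0.07, -0.03 and 0.05. Several thus lay near the median gene. Of 35 members called in each of these comparisons, 25 kept their call and sign under every alternative that gave a value. Gstt1 is among the 25 in both comparisons and Sod3 in knockout vehicle against floxed vehicle, and their calls carry no weight. The share of all called genes that kept theirs was not computed, so the 25 are a description only.

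For oxybutynin against vehicle in knockout cells, 1 of all tested genes was higher and 1 lower in edgeR's test. DESeq2 called 173 higher and 960 lower, limma-voom 2 and 1, RLE scaling 2 and 5, and library totals 10 and 148. No filter gave 277 and 822, the GC and length fit 4 and 5, and the fit of only these groups 2 and 0. The cause was not tested. Leaving out a library gave 0 to 1873 higher and 0 to 2315 lower of all genes, and 0 to 7 higher and 0 to 2 lower of the members, the highest each time without knockout vehicle replicate 3. No paired analysis was possible because the titles number the libraries 1 to 9 with no number shared between groups. Depth limits Gstt1 and Sod3, which held at most 22 counts in any library.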
